A study of Mus musculus with 14 samples.

Results

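The genes described here are 9 of the 21878 genes listed for the kidneys of 14 mice. They are the TGF-beta ligands *Tgfb1*, *Tgfb2* and *Tgfb3*, the signaling receptors *Tgfbr1* and *Tgfbr2*, the receptors for platelet-derived growth factor (PDGF) *Pdgfra* and *Pdgfrb*, and the contractile genes *Acta2* and *Tagln*. They were chosen by name, and each was found as a gene symbol in the values of every mouse. All mice were male C57BL/6J, and a time of 34 weeks, with no starting point, is in the label of each. The 4 WT diabetic mice and the 4 *Cfb-/-* diabetic mice had been fed a high-fat diet (HFD, 60% of calories from fat) for 4 weeks and then injected intraperitoneally with streptozotocin (STZ), a toxin of the insulin-producing beta cells, at 60 mg/kg on 5 consecutive days. The 3 WT control mice and the 3 *Cfb-/-* control mice had been fed chow with 10% of calories from fat and injected with citrate buffer. *Cfb-/-* mice lack *Cfb*, the gene for complement factor B, a protease of the alternative complement pathway. The study describes the WT mice as littermates. The genotype field of the labels calls the deletion a knockdown, and the treatment field carries the text of diabetic mice for the control mice too, so groups were taken from the sample names.

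TGF-beta is released from cells bound to a latency protein and a latent TGF-beta binding protein, and signals only after integrins, thrombospondin or proteases free it. It then binds the type II receptor, encoded by *Tgfbr2*, which recruits and phosphorylates the type I receptor, encoded by *Tgfbr1*, and this kinase phosphorylates SMAD2 and SMAD3, which enter the nucleus with SMAD4. In the kidney, TGF-beta and PDGF are known as the main growth factors that act on fibroblasts, pericytes and mesangial cells, and smooth muscle actin, the product of *Acta2*, is the usual marker of the contractile, matrix-producing myofibroblast that such cells can become, although arterial smooth muscle holds it as well.

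Kidney RNA was sequenced, and the authors deposited the values as fragments per kilobase of transcript and per unit of sequencing depth (FPKM), a level adjusted for transcript length and library size. Read numbers are unknown, but the relative depth of the mice, as estimated from the steps between low values, lay between 0.843 and 1.003. Summed FPKM was 330246 to 364953 in diabetic mice and 372884 to 488196 in control mice, and *Kap*, an androgen-regulated proximal tubule gene, held 10.2% to 13.9% of that sum in control mice. *Cfb*, the deleted gene, had 1.13 to 2.22 FPKM over the 7 *Cfb-/-* mice and 56.7 to 131 FPKM over the 7 WT mice, so its level went with the genotype label in all 14. Each of the fixed markers of proximal tubule, thick limb and collecting duct, podocytes and endothelium was detected in every group. Markers of urothelium, the lining of the renal pelvis, varied between mice of a group, as described with the smooth muscle genes. Whole tissue was measured, so fewer cells of a type and less RNA per cell cannot be told apart. The p values measure the spread between these mice.

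In WT mice, each of the 9 genes was higher in diabetic than in control mice, and 9 of 9 rose at a limma p under 0.05 after Benjamini-Hochberg adjustment. Of all 14912 tested genes, 46.1% passed in either direction, 36.2% higher and 9.97% lower. In *Cfb-/-* mice, 8 of 9 rose and *Tgfbr1* did not pass. There 33.8% of tested genes passed, 27.4% higher and 6.40% lower. The comparisons have no mouse in common. The log2 fold change on the scale of log2(FPKM + 0.1) ran from 0.78 to 1.45 in WT mice, with a median of 1.03, and from 0.40 to 1.48 in *Cfb-/-* mice, also with a median of 1.03. Over all tested genes the medians were 0.29 and 0.22. Between genotypes, 0 of the 9 genes passed the test in diabetic or in control mice.

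**Figure D1:**
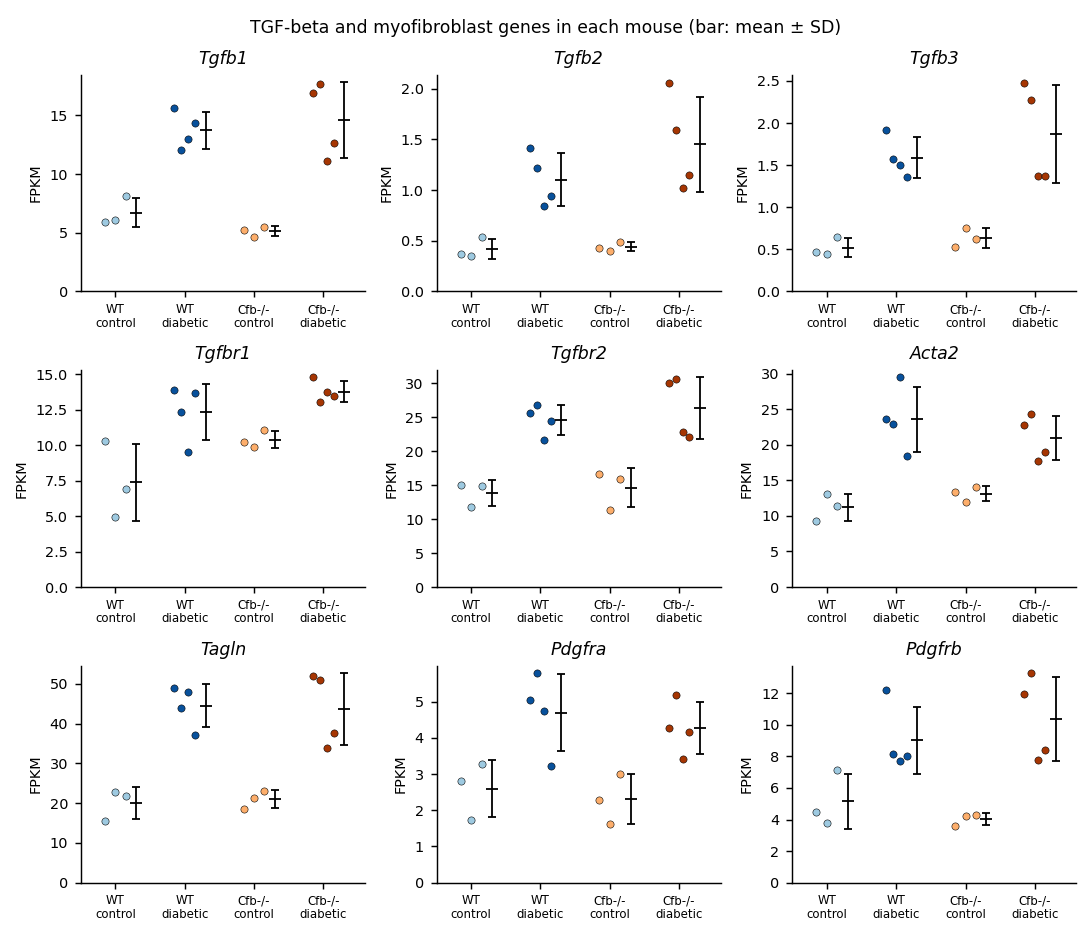
FPKM of each of the 9 genes (y axis, from 0) in every mouse, by group (x axis), with the mean and SD of the group as a black bar to the right of its points. In *Cfb-/-* mice no control mouse reached the lowest diabetic mouse for any of the 9 genes, whereas in WT mice the groups overlapped for *Tgfbr1* and *Pdgfra*.

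The 3 ligands are the extracellular signals of the pathway. *Tgfb1* was the most abundant, with a mean over all mice of 10.6 FPKM, against 1.24 FPKM for *Tgfb3* and 0.915 FPKM for *Tgfb2*. *Tgfb1* made up 81.7% ± 1.93 (SD, n = 4) of the summed ligand FPKM in *Cfb-/-* diabetic mice and 83.6% ± 2.24 (SD, n = 4) in WT diabetic mice. The share was 82.6% ± 2.20 (SD, n = 3) in *Cfb-/-* control mice and 87.8% ± 0.607 (SD, n = 3) in WT control mice. In the order of mice used throughout, from mouse 1 of a group upward, *Tgfb1* was at 15.6, 12.05, 12.96 and 14.3 FPKM in WT diabetic mice and at 5.93, 6.10 and 8.13 FPKM in WT control mice. It was at 16.9, 17.7, 11.1 and 12.7 FPKM in *Cfb-/-* diabetic mice and at 5.22, 4.68 and 5.48 FPKM in *Cfb-/-* control mice. All 8 diabetic mice were above all 6 control mice. *Cfb-/-* diabetic mice 3 and 4 had the lowest values of their group. The mean rose 2.04-fold in WT mice, a log2 fold change of 1.03 (SE 0.17, limma adjusted p = 0.000271), and 2.85-fold in *Cfb-/-* mice, a log2 fold change of 1.47 (SE 0.17, limma adjusted p = 2.33e-05). Without overlap between groups, the exact two-sided permutation p was 0.0571 for each of these comparisons, the smallest that 4 mice against 3 allow.

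*Tgfb2* encodes the isoform with the lowest affinity for the type II receptor on its own, and it was the least abundant ligand. It was at 1.41, 1.22, 0.838 and 0.946 FPKM in WT diabetic mice and at 0.370, 0.355 and 0.535 FPKM in WT control mice. Its values were 2.05, 1.59, 1.02 and 1.15 FPKM in *Cfb-/-* mice with diabetes and 0.430, 0.402 and 0.490 FPKM in those without. Again all diabetic mice were above all control mice, and *Cfb-/-* diabetic mice 1 and 2 were the highest of all. The log2 fold change of *Tgfb2* was 1.20 (SE 0.24, limma adjusted p = 0.00129) in WT mice, and 1.48 (SE 0.24, limma adjusted p = 0.00034) in *Cfb-/-* mice. Under quantile normalization the change in WT mice was 0.45, with an adjusted p of 0.0923.

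*Tgfb3*, a ligand expressed mainly by mesenchymal cells, was at 1.92, 1.58, 1.50 and 1.36 FPKM in WT diabetic mice and at 0.470, 0.443 and 0.650 FPKM in WT control mice. *Cfb-/-* mice had 2.47, 2.27, 1.38 and 1.37 FPKM with diabetes and 0.527, 0.755 and 0.626 FPKM without. The diabetic and control mice of each genotype were apart, with a gap from the highest control mouse at 0.755 FPKM to the lowest diabetic mouse at 1.36 FPKM. In WT mice *Tgfb3* had the largest log2 fold change of the 9 genes, 1.45 (SE 0.23, limma adjusted p = 0.000227). That of *Cfb-/-* mice was 1.39 (SE 0.23, limma adjusted p = 0.000365).

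The 250 bases before the RefSeq start sites (GRCm38.p6) of *Tgfb1* and *Tgfb2* are shown, to set the most abundant beside the least abundant ligand. Windows of 250 bases before to 50 after the start were given for 6 of the 9 genes. The *Tgfb1* gene lies at chr7:25687002-25705077 on the plus strand, and its window chr7:25686752-25687001 held the letters GGGCGG, the core of the GC box bound by SP1, or their reverse complement CCGCCC 5 times, which are in capitals. The *Tgfb2* gene lies at chr1:186622787-186709697, and its window chr1:186705990-186706239, read from the minus strand, is that of a start site inside this span. It held no GGGCGG but had TATAAA, the TATA box, in capitals, from 31 to 26 bases before the start. On either strand, GGGCGG was found in 35.7% and TATAAA in 13.6% of all 32851 windows.
Tgfb1: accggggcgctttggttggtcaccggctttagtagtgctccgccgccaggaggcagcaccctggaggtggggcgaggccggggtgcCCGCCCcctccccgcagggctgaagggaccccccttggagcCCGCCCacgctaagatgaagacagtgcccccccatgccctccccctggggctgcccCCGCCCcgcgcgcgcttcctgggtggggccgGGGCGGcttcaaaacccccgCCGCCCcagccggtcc
Tgfb2: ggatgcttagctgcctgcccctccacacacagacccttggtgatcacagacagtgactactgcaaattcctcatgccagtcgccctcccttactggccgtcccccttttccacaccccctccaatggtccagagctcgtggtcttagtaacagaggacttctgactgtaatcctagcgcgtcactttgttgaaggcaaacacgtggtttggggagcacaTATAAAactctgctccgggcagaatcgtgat
Of the other genes, *Tgfbr1*, which had 2 windows, held GGGCGG 2 times, and *Tgfbr2*, *Pdgfra* and *Acta2* held neither motif. The letters CAGAC, the core of the SMAD-binding element, were in the windows of *Acta2*, *Pdgfra*, *Tgfb2*, *Tgfbr1* and *Tgfbr2*, but also in 49.6% of all windows, and TGACTCA, the AP-1 site, was in no window of the 6 genes and in 5.20% of all. The *Tgfb3* gene lies at chr12:86056743-86079041.

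The mean over all mice was 20.7 FPKM for the type II receptor gene and 11.3 FPKM for the type I receptor gene. *Tgfbr2*, on chromosome 9 at 116087695 to 116175363, encodes the constitutively active kinase that binds the ligand. It was at 25.6, 26.8, 21.6 and 24.5 FPKM in WT diabetic mice and at 14.97, 11.7 and 14.8 FPKM in WT control mice. The values in *Cfb-/-* mice were 30.05, 30.6, 22.9 and 22.05 FPKM with diabetes and 16.6, 11.4 and 15.9 FPKM without. Every diabetic mouse was above every control mouse of either genotype. The log2 fold change was 0.83 (SE 0.16, limma adjusted p = 0.00085) in WT mice, and 0.85 (SE 0.16, limma adjusted p = 0.000873) in *Cfb-/-* mice.

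*Tgfbr1*, on chromosome 4 at 47353222 to 47414926, encodes the kinase that phosphorylates SMAD2 and SMAD3. It was at 10.3, 4.93 and 6.94 FPKM in WT control mice, and at 13.9, 12.3, 9.52 and 13.7 FPKM in WT diabetic mice, so that control mouse 1 exceeded diabetic mouse 3. *Cfb-/-* mice had 10.2, 9.88 and 11.1 FPKM without diabetes and 14.8, 13.1, 13.8 and 13.5 FPKM with it, which do not overlap. The change passed the test in WT mice, with a log2 fold change of 0.78 (SE 0.19) and an adjusted p of 0.00474 from limma. For *Cfb-/-* mice the log2 fold change was 0.40 (SE 0.19, limma adjusted p = 0.119). Fitted to the *Cfb-/-* mice alone, the adjusted p was 0.0103. These unlike calls do not show that the change differed between genotypes: the difference between the changes was -0.38 (95% interval -0.95 to 0.20), with an adjusted p of 0.779. Leaving out WT control mouse 1 raised the change in WT mice to 1.05, with an adjusted p of 0.00029, and leaving out mouse 2 lowered it to 0.53, with an adjusted p of 0.0278.

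The PDGF receptors mark the mesenchymal cells of the kidney, *Pdgfrb* chiefly pericytes and mesangial cells and *Pdgfra* chiefly interstitial fibroblasts. *Pdgfrb* was at 12.2, 8.16, 7.72 and 8.03 FPKM in WT diabetic mice and at 4.50, 3.81 and 7.15 FPKM in WT control mice. It was at 11.97, 13.3, 7.78 and 8.42 FPKM in *Cfb-/-* diabetic mice and at 3.57, 4.22 and 4.27 FPKM in *Cfb-/-* control mice. The groups of each genotype did not overlap, but WT control mouse 3 lay close to WT diabetic mouse 3, and WT diabetic mouse 1 stood above the others of its group. The log2 fold change was 0.82 (SE 0.23, limma adjusted p = 0.0108) in WT mice, and 1.31 (SE 0.23, limma adjusted p = 0.000615) in *Cfb-/-* mice. In WT mice it was no longer called without control mouse 2, at 0.63 with an adjusted p of 0.0677, or under quantile normalization, at 0.53 with an adjusted p of 0.0738.

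*Pdgfra*, on chromosome 5 at 75151322 to 75198206, was less abundant. Its values were 5.05, 5.79, 4.73 and 3.23 FPKM in WT diabetic mice and 2.80, 1.72 and 3.27 FPKM in WT control mice. They were 4.28, 5.18, 3.43 and 4.17 FPKM in *Cfb-/-* mice with diabetes and 2.29, 1.62 and 3.004 FPKM in those without. In WT mice control mouse 3 was above diabetic mouse 4, while the *Cfb-/-* groups were apart. The log2 fold change was 0.85 (SE 0.25, limma adjusted p = 0.0142) in WT mice, and 0.89 (SE 0.25, limma adjusted p = 0.014) in *Cfb-/-* mice. These calls changed with the setting. In WT mice the adjusted p was 0.0515 with median-ratio scaling, 0.174 with quantile normalization and 0.0904 without control mouse 2. In *Cfb-/-* mice it was 0.108 with quantile normalization and 0.0848 without control mouse 2.

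*Acta2*, smooth muscle alpha-actin, is the filament protein by which myofibroblasts are usually counted. It was at 23.6, 22.96, 29.5 and 18.4 FPKM in WT diabetic mice and at 9.23, 13.1 and 11.3 FPKM in WT control mice. Its values were 22.7, 24.3, 17.7 and 19.05 FPKM in *Cfb-/-* mice with diabetes and 13.4, 11.9 and 14.04 FPKM in those without. All diabetic mice were above all control mice, and WT diabetic mouse 3 was the highest. The mean rose 2.11-fold in WT mice, a log2 fold change of 1.06 (SE 0.16, limma adjusted p = 0.000171), and 1.60-fold in *Cfb-/-* mice, a log2 fold change of 0.66 (SE 0.16, limma adjusted p = 0.00557). With median-ratio scaling the change in *Cfb-/-* mice was 0.42, with an adjusted p of 0.0886, and was no longer called. The difference between the changes was -0.40 (95% interval -0.89 to 0.088), with an adjusted p of 0.779.

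*Tagln* encodes transgelin, an actin-binding protein of smooth muscle, and was the most abundant of the 9 genes. It lies at chr9:45929628-45936058. It was at 49.02, 43.8, 48.00 and 37.01 FPKM in WT diabetic mice and at 15.4, 22.9 and 21.7 FPKM in WT control mice. It was at 51.9, 50.8, 33.9 and 37.7 FPKM in *Cfb-/-* diabetic mice and at 18.6, 21.3 and 23.03 FPKM in *Cfb-/-* control mice. The lowest diabetic mouse was at 33.9 FPKM and the highest control mouse at 23.0 FPKM. The log2 fold change was 1.16 (SE 0.17, limma adjusted p = 0.000147) in WT mice, and 1.03 (SE 0.17, limma adjusted p = 0.000402) in *Cfb-/-* mice.

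The bases before the start of *Acta2* are shown because smooth muscle genes are known for CArG boxes, sites of serum response factor with 2 C, 6 A or T, and 2 G. The gene lies at chr19:34240336-34255585 in RefSeq, and the window chr19:34255374-34255623 is read from the minus strand. The start site of this window lies inside the gene's span, so that most of the window does too, and which exons it meets was not examined. It held no CArG box in the strict form, which was in 1.63% of all windows. In a search added after that result, with a single C or G allowed among the 6 inner bases, 2 matches were found, CCCTATATGG from 84 to 75 and CCTTGTTTGG from 34 to 25 bases before the start. They are in capitals. This form was in 8.50% of all windows, and among the 6 genes also in that of *Tgfbr2*, as CCTTGATTGG from 73 to 64 bases before the start.
Acta2: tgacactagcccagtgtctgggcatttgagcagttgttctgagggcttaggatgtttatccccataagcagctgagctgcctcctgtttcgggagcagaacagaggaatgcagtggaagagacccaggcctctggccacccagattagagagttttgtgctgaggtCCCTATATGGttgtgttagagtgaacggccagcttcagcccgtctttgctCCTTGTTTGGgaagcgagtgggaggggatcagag
A match is a description of these letters, and binding was not measured.

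**Figure D2:**
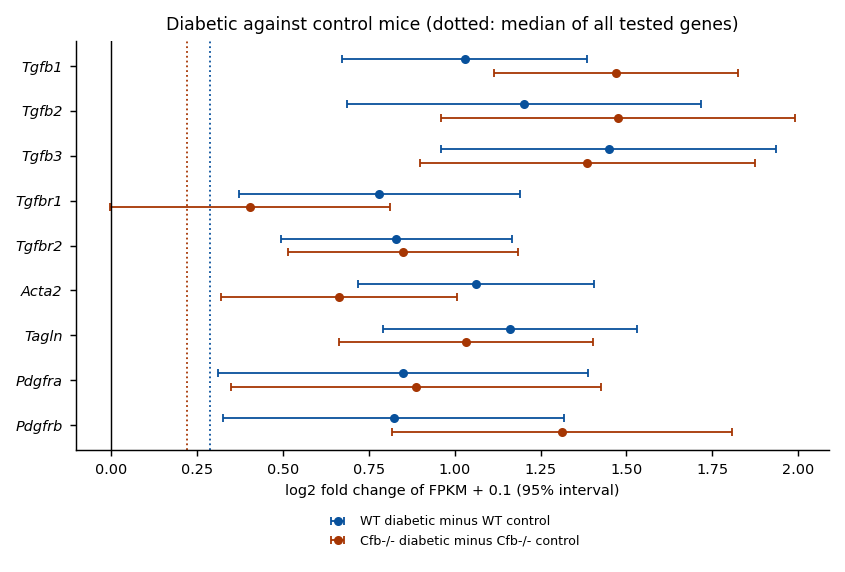
Log2 fold change of FPKM + 0.1 from control to diabetic mice (x axis) for the 9 genes (y axis), with 95% intervals, in WT mice (blue) and *Cfb-/-* mice (red). The dotted lines are the medians of all tested genes, 0.29 in WT and 0.22 in *Cfb-/-* mice. All 18 points lie above their median, and only the interval of *Tgfbr1* in *Cfb-/-* mice reaches 0.

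The rise held for most of the 9 genes when the mice were rescaled. Median-ratio scaling, which moved the median of all tested genes from 0.29 to 0.028 in WT mice and from 0.22 to -0.0088 in *Cfb-/-* mice, left 8 of 9 genes called in WT and 7 of 9 in *Cfb-/-* mice. The median of the 9 genes was then 0.75 in WT and 0.79 in *Cfb-/-* mice. Quantile normalization left 6 of 9 genes called in WT mice and 7 of 9 in *Cfb-/-* mice. None of the 9 genes turned its direction in either genotype under these settings. The share of all tested genes called under either rescaling is not given, so these counts have no background beside them. Over all tested genes, the share of calls that were higher in diabetes was 78.4% in WT mice as deposited, 50.3% with median-ratio scaling and 44.2% with quantile normalization. For *Cfb-/-* mice it was 81.0%, 56.8% and 49.1%. In single mice, 7 of 9 genes did not overlap between WT diabetic and WT control mice, and 9 of 9 between the *Cfb-/-* groups. Of all tested genes, 35.5% were higher and 9.84% lower without overlap in WT mice, and 33.6% and 8.64% in *Cfb-/-* mice.

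Macrophage markers and part of the tubule markers moved with diabetes as well. The summed FPKM of 6 macrophage markers lay between 111 and 193 over diabetic mice and between 33.1 and 54.3 over control mice of both genotypes. Of these 6 genes, 6 rose in WT and 5 in *Cfb-/-* mice. That of 6 proximal tubule markers lay between 946 and 1646 with diabetes and between 2357 and 2980 without. Of these, 3 fell in WT mice and 4 in *Cfb-/-* mice, and *Slc34a1*, a phosphate transporter, held the largest part of the sum and changed by -1.34 in WT mice, while *Aqp1*, a water channel, was at 0.29 with an adjusted p of 0.390. The 4 thick limb and collecting duct markers summed to 981 to 1895 FPKM in WT diabetic and 587 to 996 FPKM in WT control mice, and 2 of 4 rose, but 0 of 4 with median-ratio scaling. Their sums overlapped in *Cfb-/-* mice, at 1246 to 1521 against 694 to 2044 FPKM, and 0 of 4 rose. Of 5 endothelial markers, 3 rose in each genotype. Of 5 podocyte markers, 2 rose in WT and 5 in *Cfb-/-* mice. Beside these counts, 36.2% of all tested genes rose and 9.97% fell in WT mice, and 27.4% and 6.40% in *Cfb-/-* mice. None of these markers was at 0 in all mice of a group. The part of these cells in the changes of the 9 genes was not tested.

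The deletion of *Cfb* was compared within diabetic mice. None of the 9 genes passed the test, and for each of them the *Cfb-/-* and WT diabetic mice overlapped. Among all tested genes, 0.00671% were called, which is *Cfb* alone, and 448 had an unadjusted p under 0.05. Groups that do not overlap were found for 1.86% of tested genes with higher and 0.885% with lower values in *Cfb-/-* mice. The mean of *Tgfb1* was 14.6 ± 3.22 FPKM (SD, n = 4) in *Cfb-/-* and 13.7 ± 1.57 FPKM (SD, n = 4) in WT diabetic mice, a log2 difference of 0.068 with a 95% interval of -0.26 to 0.40. For *Acta2* the means were 20.9 ± 3.08 FPKM (SD, n = 4) and 23.6 ± 4.57 FPKM (SD, n = 4), a difference of -0.16 with an interval of -0.48 to 0.16. The largest difference was that of *Tgfb2*, at 0.34 with an interval of -0.13 to 0.82 and an exact two-sided permutation p of 0.257. The intervals for the other genes were -0.27 to 0.64 for *Tgfb3*, -0.21 to 0.55 for *Tgfbr1*, -0.22 to 0.40 for *Tgfbr2*, -0.39 to 0.30 for *Tagln*, -0.62 to 0.38 for *Pdgfra* and -0.27 to 0.65 for *Pdgfrb*, all on the log2 scale. Each interval includes 0 and values to both sides of it, and the adjusted p was 1 for each of the 9 genes.

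The *Cfb-/-* diabetic mice were themselves of unequal level. For 8 of 9 genes, mice 1 and 2 were both above mice 3 and 4. This order was noticed in the values. The share of all tested genes with this order was not computed, so it is not shown to be particular to these genes. For *Tgfb1* mice 1 and 2 were above every WT diabetic mouse, at 16.9 and 17.7 FPKM, and mice 3 and 4 were at 11.1 and 12.7 FPKM. The exception was *Tgfbr1*, which ranged from 13.1 to 14.8 FPKM. Podocyte markers summed to 139 and 143 FPKM in mice 1 and 2, and 99.5 and 93.5 FPKM in mice 3 and 4. Macrophage markers also were higher in mice 1 and 2, at 192 and 193 against 111 and 126 FPKM in mice 3 and 4, and proximal tubule markers were lower, at 946 and 1005 against 1646 and 1506 FPKM. The part of these cells in the values of the 9 genes was not tested.

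**Figure D3:**
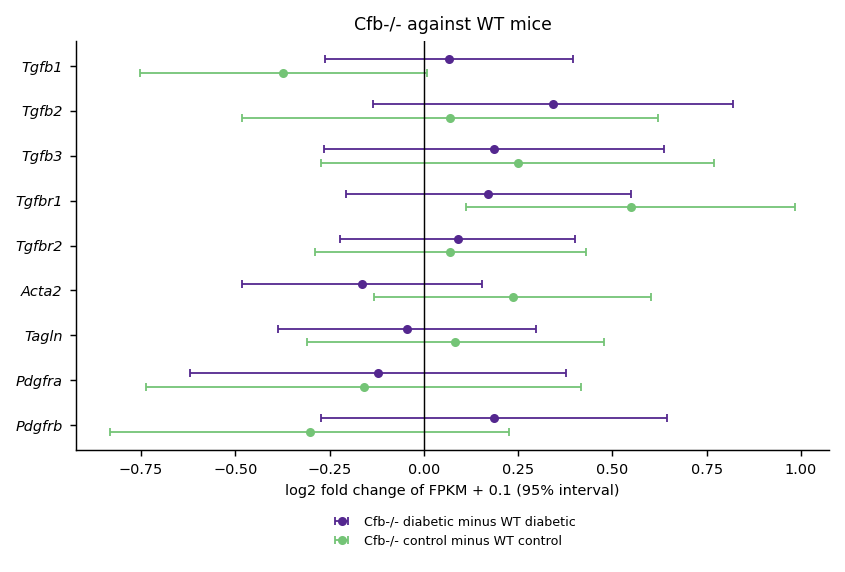
Log2 difference between *Cfb-/-* and WT mice (x axis) for the 9 genes (y axis), with 95% intervals, in diabetic mice (purple) and control mice (green). Every interval in diabetic mice includes 0, and in control mice only that of *Tgfbr1* lies above 0.

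In control mice, the same comparison asked whether the genes differed without diabetes. None of 9 was called, against 0.00671% of tested genes, while 2614 tested genes had an unadjusted p under 0.05. *Tgfb1* was the only gene of the 9 without overlap, at 5.22, 4.68 and 5.48 FPKM in *Cfb-/-* and 5.93, 6.10 and 8.13 FPKM in WT mice. Lower values without overlap were found for 7.12% of tested genes in this comparison and higher ones for 6.67%. The log2 difference of *Tgfb1* was -0.37 (SE 0.18) with a 95% interval of -0.75 to 0.0076, a limma adjusted p of 0.291 and an exact two-sided permutation p of 0.1, the smallest that 3 mice against 3 allow. *Tgfbr1* differed by 0.55 (SE 0.20), with an interval of 0.11 to 0.98 and an adjusted p of 0.250. Without WT control mouse 1, whose *Tgfbr1* was 10.3 FPKM, it differed by 0.82 with an adjusted p of 0.0257 and was called. For the other 7 genes the difference lay between -0.30 for *Pdgfrb* and 0.25 for *Tgfb3*.

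The difference between the diabetes effects of the genotypes uses all 14 mice. It was called for 0 of 9 genes and for 0% of the tested genes, of which 861 had an unadjusted p under 0.05. The largest positive estimates were those of *Pdgfrb* at 0.49 (95% interval -0.21 to 1.19) and *Tgfb1* at 0.44 (-0.063 to 0.94), meaning a larger rise in *Cfb-/-* mice, and the largest negative ones were those of *Acta2* and *Tgfbr1*, given above. These comparisons share diabetic and control mice with those described before.

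Ratios within a mouse were taken as FPKM ratios, and their differences on the scale of log2(FPKM + 0.1). Between diabetic and control WT mice, the ratio of *Tgfb3* to *Tgfb1* did not overlap, at 0.0949 to 0.131 against 0.0725 to 0.0800, a log2 difference of 0.42. In *Cfb-/-* mice the ratio of *Tgfbr1* to *Tgfbr2* was lower with diabetes, at 0.427 to 0.611 against 0.615 to 0.866, a difference of -0.45. The ratio of *Tagln* to *Acta2* was higher with diabetes in *Cfb-/-* mice, at 1.92 to 2.28 against 1.39 to 1.79, a difference of 0.37. Each had an exact two-sided permutation p of 0.0571 and, over the 20 tests of 5 ratios in 4 comparisons, an adjusted p of 0.381. In control mice, *Tgfb2* to *Tgfb1* and *Tgfb3* to *Tgfb1* were both higher in *Cfb-/-* than in WT mice without overlap, by 0.44 and 0.62 on the log2 scale, with an exact two-sided permutation p of 0.1 each. None of the 20 tests passed after adjustment. With a pseudocount of 1 in place of 0.1, the diabetes differences of *Tgfb2* to *Tgfb1* in both genotypes and of *Tgfb3* to *Tgfb1* in WT mice turned their sign.

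Further genes of the pathway were taken from fixed lists, which were chosen with earlier results of these data known. Most genes named from them are those with the largest called rises in WT mice. A smaller change in *Cfb-/-* mice can follow from that choice. In WT mice 50 of 68 list genes rose and 0 fell, and in *Cfb-/-* mice 41 rose and 0 fell. Of all tested genes, 36.2% rose and 9.97% fell in WT mice, and 27.4% and 6.40% in *Cfb-/-* mice. The same shares stand beside the counts of single lists below, but no such share is given for counts after rescaling. Under quantile normalization 30 list genes were called in WT mice, in either direction. The genes that keep or free TGF-beta had 8 of 11 risen in WT mice (median log2 fold change 1.13) and 7 of 11 in *Cfb-/-* mice (0.81). *Ltbp2*, a latent TGF-beta binding protein, rose by 2.89 and 3.34 on the log2 scale, with adjusted p values of 4.81e-05 and 1.94e-05 from limma. Its level was 0.968 to 2.38 FPKM in WT diabetic mice and 0.0708 to 0.162 FPKM in WT control mice. *Thbs1*, thrombospondin 1, an activator of latent TGF-beta, rose by 1.99 in WT and 1.40 in *Cfb-/-* mice, with adjusted p values of 2.89e-05 and 0.000425. *Itgb8*, an integrin chain that binds the latency protein, rose by 2.06 in WT mice with an adjusted p of 0.0375, but its WT control mice were at 10.7, 0.576 and 1.53 FPKM, and without mouse 2 the change was 1.18 with an adjusted p of 0.236. The call of *Itgb8* was also lost with either rescaling, with a pseudocount of 1, and without WT control mouse 3 or WT diabetic mouse 1 or 2. The difference of *Itgb8* in *Cfb-/-* mice was -0.12. *Furin*, the protease that cuts the TGF-beta precursors, was the most abundant of this list and had a log2 difference of -0.17 in WT and -0.26 in *Cfb-/-* mice, with adjusted p values of 0.195 and 0.0703. With median-ratio scaling these were -0.45 and -0.50, with adjusted p values of 0.00843 and 0.00583, and *Furin* was then called lower.

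Of the list of co-receptors, which also holds the type I receptor gene *Acvrl1*, 3 of 3 rose in WT and 2 of 3 in *Cfb-/-* mice. *Acvrl1*, the endothelial type I receptor ALK1, rose by 0.86 in WT and 1.05 in *Cfb-/-* mice. *Eng*, endoglin, its endothelial co-receptor, rose by 0.70 and 1.08. *Tgfbr3*, betaglycan, which presents TGF-beta to the type II receptor, rose by 0.83 in WT mice, with an adjusted p of 0.0154, and had a difference of 0.34 in *Cfb-/-* mice, with an adjusted p of 0.313. Its call in WT mice was lost with median-ratio scaling, at 0.56 with an adjusted p of 0.0671, with quantile normalization, at 0.42 with 0.166, and without WT control mouse 2, at 0.64 with 0.0888. With either rescaling, 2 of the 3 genes of this list were called in WT mice. Of the SMADs and their regulators, 6 of 12 rose in WT mice, with a median of 0.40, and 5 of 12 in *Cfb-/-* mice, with a median of 0.31, near the medians of all tested genes. With median-ratio scaling 1 of 12 rose in each genotype and 1 fell in WT mice. The gene that rose in both was *Smurf1*, a ubiquitin ligase for SMADs and receptors, at 0.67 in WT and 0.83 in *Cfb-/-* mice as deposited, but with quantile normalization its change in WT mice was 0.23, with an adjusted p of 0.101. *Pmepa1*, *Tgif1* and *Ski*, which all restrain SMAD signaling, rose in both genotypes as deposited, by 0.32 to 0.77, but none of them with median-ratio scaling or quantile normalization. In each genotype these calls were also lost when some single mice were left out, and those of *Pmepa1* and *Tgif1* with a replicate block.

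Among the lists of pathway genes, the target genes of TGF-beta, which encode matrix proteins and their regulators, had the largest median change. The marker lists of cell types are not part of this ranking. Of these, 10 of 10 rose in WT mice, with a median of 2.68, and 9 of 10 in *Cfb-/-* mice, with a median of 2.25, and the same counts rose with median-ratio scaling and with quantile normalization. *Fn1*, fibronectin, was at 9.81 to 17.1 FPKM in WT diabetic and 1.05 to 1.80 FPKM in WT control mice, and rose by 2.95 (SE 0.22) in WT and 2.76 (SE 0.22) in *Cfb-/-* mice. *Ctgf*, connective tissue growth factor, was the most abundant of them, at 69.6 to 81.7 FPKM in WT diabetic and 74.6 to 101 FPKM in *Cfb-/-* diabetic mice, and rose by 1.12 (SE 0.16) and 1.82 (SE 0.16). *Postn*, periostin, was the gene that did not pass in *Cfb-/-* mice. It was at 1.11, 1.83, 3.20 and 1.90 FPKM in WT diabetic and 0.194, 0.146 and 0.0629 FPKM in WT control mice, against 1.14, 0.943, 0.449 and 1.18 FPKM in *Cfb-/-* mice with diabetes and 0.483, 0.238 and 0.676 FPKM in *Cfb-/-* control mice. It rose by 3.12 (SE 0.38, limma adjusted p = 3.48e-05) in WT mice and differed by 0.87 in *Cfb-/-* mice, with an adjusted p of 0.0937. Without *Cfb-/-* diabetic mouse 3 the latter was 1.15, with an adjusted p of 0.0259, and was called. Within WT diabetic mice and within *Cfb-/-* control mice, *Postn* was lowest in mouse 1 and in mouse 2, which also had the lowest sums of urothelium markers of these groups. In *Cfb-/-* diabetic mice, mouse 3 was lowest in both. WT control mice went the other way, as mouse 1 had the highest *Postn* and the lowest sum. Among WT diabetic mice the highest *Postn* was in mouse 3 and the highest sum in mouse 2. The part of urothelium in *Postn* was not tested. Without WT diabetic mice 2 and 3 *Postn* rose by 2.77 in WT mice. The difference between the changes was -2.25 (95% interval -3.41 to -1.10), with an adjusted p of 0.698. *Postn* was named for its large rise in WT mice, and the interval does not take that choice into account.

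**Figure D4:**
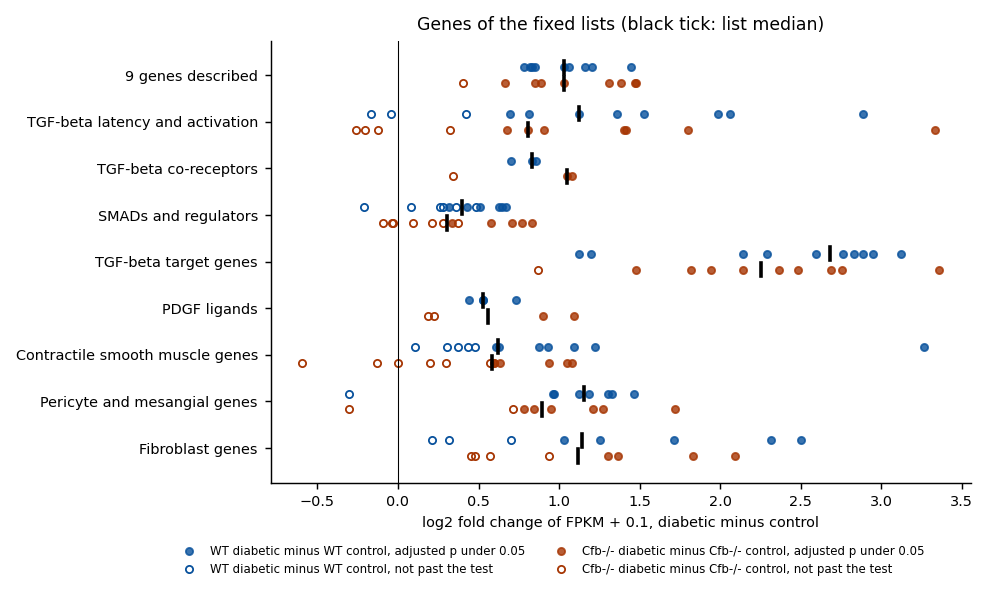
Log2 fold change of FPKM + 0.1 from control to diabetic mice (x axis) of every tested gene of the 9 genes and of 8 fixed lists (y axis), in WT mice (blue) and *Cfb-/-* mice (red), filled where the adjusted p was under 0.05, with the list median as a black tick. The target genes lie furthest to the right, with medians of 2.68 and 2.25, and the SMADs nearest to 0.

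Of the ligands of the PDGF receptors, 4 of 4 rose in WT mice and 2 of 4 in *Cfb-/-* mice, but with median-ratio scaling 1 of 4 and 2 of 4, and with quantile normalization 0 of 4 and 2 of 4. *Pdgfb*, the ligand of *Pdgfrb* made by endothelium, rose by 0.53 in WT mice, with an adjusted p of 0.0283, and by 1.09 in *Cfb-/-* mice, with an adjusted p of 0.000385. In WT mice *Pdgfb* was no longer called with median-ratio scaling, at 0.26, with quantile normalization, at 0.030, or without WT diabetic mouse 1 or control mouse 1 or 2. *Pdgfa* rose by 0.73 and 0.90. *Pdgfd* rose by 0.53 in WT mice and had a difference of 0.18 in *Cfb-/-* mice, with an adjusted p of 0.320. Pericyte and mesangial genes rose in 7 of 8 cases in WT mice (median 1.15) and in 6 of 8 in *Cfb-/-* mice (0.90), and 1 of them fell in WT mice under median-ratio scaling. *Notch3*, a receptor of pericytes and arterial muscle, rose by 1.47 and 1.21. *Rgs5*, a pericyte regulator of G protein signaling and the most abundant of the list, rose by 1.33 and 0.84, and *Gucy1a3*, a subunit of soluble guanylate cyclase, by 1.31 and 1.72. Fibroblast genes rose in 5 of 8 cases in WT mice and in 4 of 8 in *Cfb-/-* mice. Among these, *Dcn*, decorin, was the most abundant and rose by 1.71 and 1.30. *Lum*, lumican, rose by 2.51 and 1.37, the latter with an adjusted p of 0.0578 under quantile normalization. *Dpt*, dermatopontin, rose by 2.32 in WT mice and differed by 0.94 in *Cfb-/-* mice, with an adjusted p of 0.129, and was called there without diabetic mouse 3 or control mouse 3, at 1.24 and 1.35.

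Contractile genes other than *Acta2* and *Tagln* rose in 7 of 12 cases in WT mice (median 0.62) and in 6 of 12 in *Cfb-/-* mice (0.58), with 4 of 12 in each genotype under median-ratio scaling. *Actg2*, smooth muscle gamma-actin of visceral muscle, was at 0.152, 1.97, 5.77 and 0.493 FPKM in WT diabetic mice, and WT control mice were at 0.0761 FPKM in mouse 1 and listed at 0 in mice 2 and 3. *Cfb-/-* mice had 0.166, 0.0705, 0.134 and 0.248 FPKM with diabetes and 0.429, 0.0691 and 0.474 FPKM without. The fitted change was 3.27 in WT mice, with an adjusted p of 0.00456, which depends on the pseudocount, and the difference in *Cfb-/-* mice was -0.59, with an adjusted p of 0.593. *Cnn1*, calponin 1, was at 1.02, 1.58, 3.20 and 1.03 FPKM in WT diabetic mice and at 0.405, 0.994 and 0.509 FPKM in WT control mice. WT diabetic mouse 3 was the highest of all for *Actg2*, *Cnn1* and *Acta2*. *Cnn1* rose by 1.23 in WT mice, with an adjusted p of 0.0226, but without that mouse by 0.89, with an adjusted p of 0.0623, and it was not called with either rescaling or without WT control mouse 1 or 3. *Cnn1* of *Cfb-/-* mice was at 1.37, 1.24, 0.613 and 0.706 FPKM with diabetes and at 1.16, 0.607 and 1.13 FPKM without. *Synpo2*, synaptopodin 2, rose by 1.09 and 1.05, though not under quantile normalization, and *Myl9*, a myosin light chain and the most abundant of the list, differed by 0.43 in WT mice, with an adjusted p of 0.0733, and rose by 0.60 in *Cfb-/-* mice, with an adjusted p of 0.0243. The call of *Myl9* in *Cfb-/-* mice was lost with median-ratio scaling, at 0.36 with an adjusted p of 0.196, and without diabetic mouse 1 or 2 or control mouse 1 or 2, with adjusted p values of 0.0531 to 0.106. In WT mice *Myl9* was called without control mouse 3, with an adjusted p of 0.0416.

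Urothelium markers were highest in the 5 mice with the highest *Actg2*. The summed FPKM of 6 of them was 3.79, 85.5, 72.5 and 23.6 in WT diabetic and 0.537, 1.04 and 0.633 in WT control mice. That of *Cfb-/-* mice was 10.5, 4.86, 4.26 and 8.07 with diabetes and 22.1, 1.31 and 20.7 without. Thus WT diabetic mice 2, 3 and 4 and *Cfb-/-* control mice 1 and 3 held the most, and 6 of 6 of these markers rose in WT mice and 0 of 6 in *Cfb-/-* mice. *Adipoq*, a marker of fat cells, was at 0.623, 1.02, 3.72 and 0.649 FPKM in WT diabetic mice and at 1.82 FPKM in *Cfb-/-* control mouse 1, and at most 0.0408 FPKM in every other mouse. In a fit without WT diabetic mice 2 and 3, chosen after these values were seen, 8 of 9 genes were still called in WT mice, with *Acta2* at 0.90 and *Tagln* at 1.11. *Pdgfra* was the gene lost, at 0.67 with an adjusted p of 0.108. In that fit 38 of the 68 list genes were called in WT mice. For this fit the share of all tested genes called is not given, so both counts have no background beside them. The log2 difference of *Acta2* between *Cfb-/-* and WT diabetic mice was -0.0036 without WT diabetic mice 2 and 3, against -0.16 with all mice. Mouse 3 held the highest *Acta2* of all, so leaving it out lowers the WT diabetic mean by itself. WT diabetic mouse 4 and *Cfb-/-* control mice 1 and 3 were kept in this fit. The part of urothelium or its muscle in the *Acta2* difference was not tested.

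**Figure D5:**
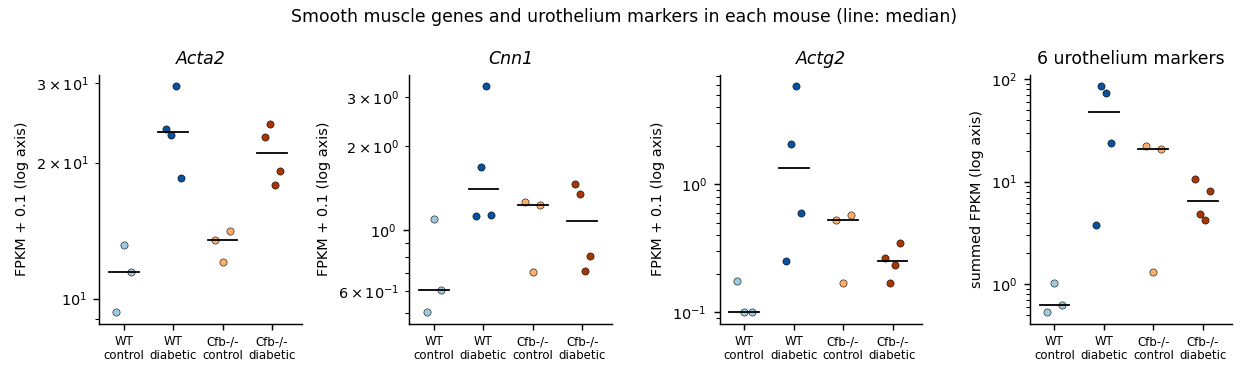
*Acta2*, *Cnn1* and *Actg2* (FPKM + 0.1) and the summed FPKM of 6 urothelium markers (y axes, all on a log scale) in every mouse by group (x axis), with the group median as a line. *Actg2* and the markers spread widely within WT diabetic mice and *Cfb-/-* control mice, whereas *Acta2* separates diabetic from control mice in both genotypes.

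Within groups, some of the genes varied together. Correlations of log2(FPKM + 0.1) over the 14 mice, after subtraction of the group means, are given as a description, since all genes of a mouse come from 1 library. *Pdgfrb* went with *Tgfb3* (r = 0.886), *Tgfb1* (0.861) and *Tgfb2* (0.831), and *Acta2* with *Tagln* (0.830). *Tgfb1* and *Acta2* were less alike (0.402), and *Tgfbr1* went against *Acta2* (-0.658) and *Tagln* (-0.478). The sum of podocyte markers went with *Pdgfrb* at 0.753 and with *Acta2* at -0.336, and that of urothelium markers with *Acta2* at 0.356. Of 11380 genes with a mean log2 value of at least 0, those most like *Acta2* in this measure were *Cnn1* (0.887), *Cd3eap* (0.861), *Cdc25a* (0.855), *Hoxa5* (0.832) and *Tagln*. Those most like *Tgfb1* were *Sipa1* (0.950), *Irf2bp2* (0.948), *Paqr4* (0.942), *Slc15a3* (0.939) and *Basp1* (0.938). Those most like *Pdgfrb* were *Ddx23* (0.964), *Lbh* (0.958), *Cald1* (0.953), *Ap3d1* (0.949) and *Loxl1* (0.943).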

How the data were processed

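Kidney RNA of 14 mice was sequenced from stranded mRNA libraries. The values the authors deposited are FPKM, 1 per gene in each mouse. The submitters' processing notes name Trimmomatic, HISAT2, Cufflinks, HTSeq, DESeq, and GRCm38.p6, without versions. FPKM values are relative to the summed library, so a few abundant genes can shift all others. Values were tested as log2(FPKM + 0.1) with limma 3.58.1 in R 4.3.3 (mean-variance trend, a mean per group, all 14 mice, no further scaling) over the 14912 genes with at least 0.1 FPKM in at least 3 mice, with Benjamini-Hochberg adjustment over all of them. The fit was tested on simulated data. The study's count test was not used, since it needs counts. Single genes and ratios were compared with exact permutation tests (scipy 1.17.1). Alternatives were other pseudocounts, filters and scalings, the groups compared alone, a replicate block, and leaving out each mouse. The 9 genes and all lists were chosen with earlier results of these data known. Named list genes are up to 3 largest rises and 2 largest falls called in WT mice and the most abundant gene of each list, with some results not reported here, and *Wt1*, *Adipoq*, *Kap*, *Slc34a1* and *Aqp1* were named after their values were seen. Sequences and positions are from RefSeq (GRCm38.p6). *Ctgf* and *Gucy1a3* are the older symbols used in the data for Ccn2 and Gucy1a1.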

Additional observations from a re-analysis of the deposited data

Results flagged for a closer look

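Over 28 tests of groups of 4 mice, 2 single mice stood apart from the rest of their group by Dixon's criterion at 95%, which chance alone gives in about 1 of 20 groups. *Pdgfrb* in WT diabetic mouse 1 was at 12.2 FPKM, and the nearest of the other WT diabetic mice at 8.16 FPKM. The ratio of *Tgfb2* to *Tgfb1* in *Cfb-/-* diabetic mouse 1 was 0.121, and the nearest of the other *Cfb-/-* diabetic mice had 0.0918.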

How the results depend on the processing

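In diabetic against control mice, none of the 9 genes turned its direction under any setting. A call was lost in 7 combinations of a gene with a setting in WT mice and in 3 in *Cfb-/-* mice, and *Tgfbr1* was called in *Cfb-/-* mice when they were fitted alone. Of the list genes, 30 were called in WT mice with quantile normalization, where *Pdgfd* in *Cfb-/-* mice was -0.098, against -0.055 with median-ratio scaling. *Cnn1* in *Cfb-/-* mice turned from -0.00040 as deposited to 0.0044 on the log2(FPKM + 1) scale. Between genotypes in diabetic mice, without WT diabetic mice 2 and 3, *Tgfb1* turned to -0.062, *Tgfbr1* to -0.00067, *Tagln* to 0.0090 and *Pdgfra* to 0.060. In control mice, *Tgfb2* turned to -0.0034, *Tgfbr2* to -0.020 and *Tagln* to -0.0075 with median-ratio scaling, and *Tgfb2* to -0.054 with quantile normalization. The difference between diabetes effects turned to 0.027 on the log2(FPKM + 1) scale and 0.043 with quantile normalization for *Tgfb3*, and to -0.0089 for *Tgfbr2* without WT diabetic mice 2 and 3. Log2 ratio differences with a pseudocount of 1 were -0.38 (*Tgfb2* to *Tgfb1*, WT), -0.17 (*Tgfb3* to *Tgfb1*, WT), -0.051 (*Pdgfra* to *Pdgfrb*, WT) and -0.58 (*Tgfb2* to *Tgfb1*, *Cfb-/-*), and *Tgfb3* to *Tgfb1* in *Cfb-/-* mice was 0.020 with 0.01. The cause was not tested in any of these.

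Leaving out each mouse in turn let values near 0 change sign. The range in *Cfb-/-* diabetic against control mice was -0.52 to 0.23 for *Itgb8*, -0.27 to 0.18 for *Cnn1*, -0.086 to 0.051 for the log2 ratio *Tgfb2* to *Tgfb1* and -0.21 to 0.094 for the log2 ratio *Tgfb3* to *Tgfb1*. The range between genotypes in diabetic mice was -0.033 to 0.19 for *Tgfb1* and -0.14 to 0.068 for *Tagln*. The range between genotypes in control mice was 0 to 1 for the number of the 9 genes called, 0 to 5 for the number of list genes called, -0.018 to 0.22 for *Tgfb2*, -0.045 to 0.24 for *Tgfbr2*, -0.094 to 0.19 for *Tagln*, -0.42 to 0.062 for *Pdgfra* and -0.018 to 0.40 for the log2 ratio *Pdgfra* to *Pdgfrb*. The range for the difference between the diabetes effects was -0.21 to 0.062 for *Tgfb3*, -0.15 to 0.13 for *Tgfbr2*, -0.24 to 0.050 for *Tagln* and -0.18 to 0.30 for *Pdgfra*. The range in WT diabetic against control mice was -0.12 to 0.17 for the log2 ratio *Pdgfra* to *Pdgfrb* and -0.19 to 0.16 for the log2 ratio *Tgfbr1* to *Tgfbr2*. The call among the 9 genes in control mice was *Tgfbr1* without WT control mouse 1. How many of all tested genes were called in that fit is not given.

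Same-numbered mice of different groups had correlations of their deviations between -0.39 and 0.24. Differently numbered mice were not compared, so this range cannot show whether the replicate numbers pair the mice. With the replicate block, 9 genes in WT and 8 in *Cfb-/-* mice stayed called, 46 and 39 list genes were called, and *Cnn1* in *Cfb-/-* mice was 0.15. No share of all tested genes is given for the block fit, so its counts have no background beside them. The groups of 3 or 4 mice leave wide intervals, and low genes such as *Tgfb2*, *Tgfb3* and *Actg2* depend on the pseudocount.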

Other observations

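Podocyte markers differed between diabetic mice of a group. The sum of the 5 markers was 130 and 135 FPKM in WT diabetic mice 1 and 4 and 82.7 and 77.1 FPKM in mice 2 and 3, which had the highest sums of urothelium markers. *Wt1*, a transcription factor of podocytes, was at 6.60, 2.88, 3.47 and 7.40 FPKM in WT diabetic and at 7.58, 6.94, 4.35 and 4.27 FPKM in *Cfb-/-* diabetic mice.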
